A study of Mus musculus with 4 samples.

Results

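Follicular helper T cells are CD4 T cells that help B cells in the follicle, and 5 genes by which they are known were followed here: Bcl6, Il21, Cxcr5, Icos and Cd200. They were chosen by name, and they and the gene lists used below were chosen with earlier results of these data known. All 5 of 5 were found among the 22180 genes named on the arrays, each by 1 probe set that carried no other gene symbol. The arrays held RNA of 4 mouse CD4 populations from 8-week-old C57BL/6 mice, and none of them is labelled as follicular helper cells. From wild-type spleen came CD4+CD62Lhi cells, labelled naive, and classical Th1 cells (cTh1), grown from such cells over 5 days on anti-CD3 and anti-CD28 beads with 2 ng/ml IL-12, 50 U/ml IL-2 and IL-4 blocked by antibody. From the thymus of CIITAtg mice, which carry a transgene of the MHC class II regulator CIITA, came CD4+CD62L+ cells with CXCR3 (natural Th1, nTh1) and without it (TT naive). The sources used here do not say which promoter drives the transgene or whether animals were pooled. The deposited values are log2 RMA values, so a difference of 1 is 2-fold, and each population had 1 array. Differences therefore have no replicate check and no p-value.

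BCL6 is the transcriptional repressor that directs CD4 T cells to the follicular fate, and the repressor BLIMP-1, encoded by Prdm1, opposes it. CXCR5 is the receptor for the chemokine CXCL13 and brings cells into the follicle, ICOS is a costimulatory receptor of the CD28 family that sustains the programme, and IL-21 is the cytokine through which these cells drive germinal centre B cells and plasma cells. CD200 is a surface glycoprotein that restrains myeloid cells through its receptor and is often used as a marker of follicular helper cells. None of the 5 is made by follicular helper cells alone. B cells carry Bcl6, Cxcr5 and Cd200, and regulatory and innate-like T cells can carry Icos. Regulatory T cells can also carry Cd200, and innate-like T cells Il21.

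The promoters of Il21 and Cd200 are shown because these were the only members that differed by 2-fold or more in any comparison. Each window is the 250 bases before the start of the gene, on the minus strand, from RefSeq on GRCm38.p6, and lies at chr3:37232637-37232886 for Il21 and at chr16:45409054-45409303 for Cd200. Capitals mark matches on either strand to the core GGAAA that NFAT factors bind.
Il21: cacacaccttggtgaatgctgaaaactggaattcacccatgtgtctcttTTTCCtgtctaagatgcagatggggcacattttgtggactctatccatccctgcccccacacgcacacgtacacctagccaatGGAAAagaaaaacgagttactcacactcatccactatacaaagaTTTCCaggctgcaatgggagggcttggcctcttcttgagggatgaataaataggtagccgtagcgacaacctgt
Cd200: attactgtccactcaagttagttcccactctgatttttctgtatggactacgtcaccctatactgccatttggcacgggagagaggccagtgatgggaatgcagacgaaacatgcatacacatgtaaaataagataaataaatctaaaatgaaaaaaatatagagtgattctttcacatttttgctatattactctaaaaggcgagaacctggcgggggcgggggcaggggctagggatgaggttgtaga
The Il21 window held 3 matches to GGAAA and the Cd200 window held 0. Of 32851 windows of the same length, 55.6% held at least 1 match and 6.39% held 3 or more. Neither window held TTCNNNGAA, a form that STAT factors bind (7.02% of windows), TGANTCA of AP-1 (6.75%), GGTGTGA of T-box factors (3.33%) or TATAAA (12.4%). These matches describe letters and not sites in use.

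The arrays were checked first. The CD4 T cell markers Cd4 and Cd3e lay between 12.33 and 12.72 and between 12.88 and 13.11. The CD8 chain gene Cd8a was at 10.31 in cTh1 and between 6.22 and 6.42 on the other arrays, and Cd8b1 at 10.75 against 8.45 to 9.75, and their part in the cTh1 values below was not tested. The naive-labelled array went against its label, with Zbtb16, which encodes PLZF of innate-like lymphocytes, at 12.23, Tbx21 at 9.81 and Cxcr3 at 9.80, against 9.36, 7.11 and 7.76 in TT naive cells. The MHC class II gene H2-Aa was at 12.66 there, as in nTh1, against 12.29 in TT naive and 10.73 in cTh1, the other array labelled wild type. Whether this array was exchanged with another sample is not known, so what each comparison with it contrasts depends on the label. It is therefore called by its label throughout, and 3 of the 6 comparisons do not use it. The TT naive array also carried markers of other T cells. Its Zbtb16 value of 9.36 was near the 9.88 of nTh1 and above the 7.31 of cTh1. Foxp3, a regulatory T cell gene, was highest there, at 9.87 against 7.29 to 9.21 on the other arrays. The Y-linked Eif2s3y, read by 1 probe set, was at 8.61 on the naive-labelled array and 8.55 in TT naive, but at 4.97 in cTh1 and 5.16 in nTh1. The animals behind the arrays may therefore have differed. The X-linked Xist was high on all 4 arrays, at 12.58, 13.03, 12.56 and 13.25 in the same order. Eif2s3y therefore does not sort the arrays into male and female. Comparisons that use the same array are not independent of each other. As a measure of error there was only the SD of a log2 difference among the probe sets of 1 gene. This SD was pooled over 455 to 480 other genes with several probe sets, since each member had only 1. The pooled SD was between 0.257 and 0.481 in the 6 comparisons. It is not an error of the member itself, and it does not cover the spread of animals, sorts or arrays.

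The cytokine gene Il21 had the widest range of the members. Its log2 value was 8.53 on the naive-labelled array, 8.99 in TT naive, 7.13 in cTh1 and 6.44 in nTh1. Both arrays labelled as naive cells were thus high, and both Th1 arrays were low. The nTh1 value lay under 6.61, the median of all values, which served as the level filter, and the files give no detection call, so whether Il21 was above background there is not known. As a guide to background, 17 measured genes of other tissues, such as Alb and Gfap, lay between 5.04 and 7.66 on the nTh1 array with a median of 6.48. The Il21 value of cTh1 also lay within the range of these genes on its array, 4.72 to 7.23, and so did Cd200 in nTh1, at 7.12. Probe sets differ in brightness, so these ranges set no threshold, but every fold that rests on these 3 values carries this limit. Of the genes of other tissues, 5 passed the filter in nTh1 over TT naive. Among these 1 was at least 2-fold higher, Alb at 1.11, and 0 were lower. For Il21, every neighbouring step in the order of TT naive, labelled naive, cTh1 and nTh1 was wider than the SD between probe sets. The narrowest was 0.46 against 0.304. Over the 4 arrays Il21 spanned 2.55 on the log2 scale, more than 98.1% of the 13238 genes that reached the filter on any array.

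Cd200, the myeloid-restraining surface protein, had log2 values of 9.01 on the naive-labelled array, 8.74 in TT naive, 8.39 in cTh1 and 7.12 in nTh1. The nTh1 array alone stood apart. Its gap to cTh1, the next array, was 1.26 against an SD between probe sets of 0.481, whereas the other neighbouring steps, 0.28 and 0.35, were within theirs. The whole range of 1.89 was wider than that of 95.4% of genes. Cd200r1, which encodes the receptor for CD200 on myeloid cells and some T cells, was at 7.45, 8.19, 8.02 and 7.34 on the naive-labelled array, TT naive, cTh1 and nTh1.

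Icos, the costimulatory receptor, was at 12.45 on the naive-labelled array, 11.95 in TT naive, 11.97 in cTh1 and 11.51 in nTh1. It was thus bright on all 4 arrays and reached 2-fold in no comparison. TT naive and cTh1 differed by 0.01 and cannot be ordered, while the naive-labelled array lay above them by 1.42-fold and 1.40-fold, more than the SD between probe sets. The nTh1 array lay below TT naive by 0.44, over the SD of 0.257, and below cTh1 by 1.37-fold, within it. Its ligand gene Icosl, which B cells and myeloid cells express, was at 8.35, 7.41, 7.97 and 8.87 in the same order of arrays, highest in nTh1.

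Bcl6, the lineage-defining repressor, had log2 values of 8.81 on the naive-labelled array, 8.81 in TT naive, 9.77 in cTh1 and 9.15 in nTh1. It was highest after Th1 culture and equal on both arrays labelled as naive cells. The step from nTh1 to cTh1 was 0.61 and that from TT naive to nTh1 was 0.34, both more than the SD between probe sets (0.481 and 0.257). Prdm1, whose product opposes BCL6, was at 7.67, 7.54, 9.59 and 7.60, so cTh1 was the highest array for both repressors. In cTh1 over TT naive, Prdm1 was higher by 2.05 and Bcl6 by 0.96.

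Cxcr5, the follicle homing receptor, was at 8.40 on the naive-labelled array, 8.07 in TT naive, 8.82 in cTh1 and 8.06 in nTh1. It too was highest in cTh1, and both thymic arrays were at the same level. The step of 0.42 from the naive-labelled array to cTh1 was barely over the SD between probe sets of 0.402. The gene for its ligand, Cxcl13, was at 6.47, 6.66, 6.45 and 7.01, at or near the level filter on every array.

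**Figure D1:**
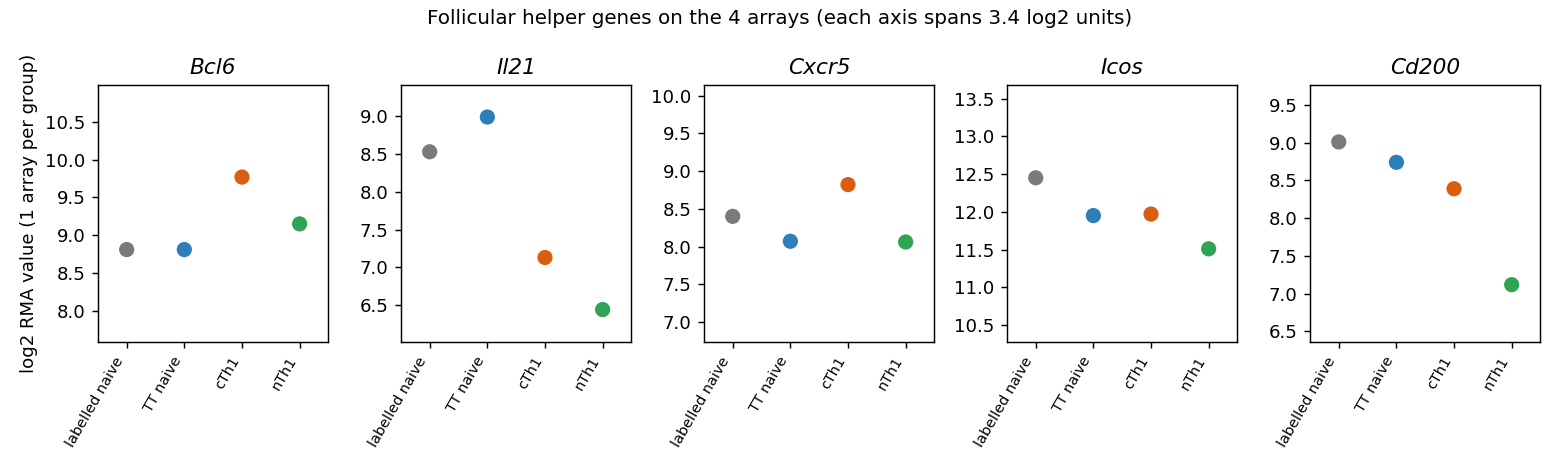
Log2 RMA values (vertical axes, each spanning 3.4 units around its own midpoint) of the 5 genes on the 4 arrays, 1 point per array and no error bars, since each population had 1 array. Il21 falls into a high pair, 8.53 and 8.99, and a low pair, 7.13 and 6.44, while Cd200 is apart in nTh1 at 7.12 and Bcl6 is highest in cTh1 at 9.77.

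The members did not share 1 pattern. Il21, Cxcr5, Icos and Cd200 were all lowest in nTh1, 4 of the 5, although Cxcr5 was equally low in TT naive. Of the 13238 genes at the filter on any array, 34.5% were lowest in nTh1. Bcl6 and Cxcr5 were highest in cTh1, as were 34.2% of genes, Icos and Cd200 on the naive-labelled array (29.3% of genes), and Il21 in TT naive (16.1%).

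The thymic arrays, nTh1 against TT naive, differ by the CXCR3 sort and also in Eif2s3y, at 5.16 and 8.55. The sort and any difference of animals cannot be told apart. Il21 was lower in nTh1 by a log2 difference of -2.55, 5.86-fold between the values as deposited, and Cd200 was 3.05-fold lower (-1.61). Since Il21 was not shown to be above background in nTh1, its fold describes these 2 values and is not an estimate of the change in transcript. Icos was at -0.44, Bcl6 at 0.34 and Cxcr5 was level, at 8.06 against 8.07. All 5 members passed the level filter, Il21 only through TT naive, where it was high. Of the members 2 were at least 2-fold lower, against 1.09% of the 12435 genes above the filter, and 0 were at least 2-fold higher, against 1.41%. The median of the 5 was -0.44, against -0.01 over all genes. In this bulk RNA, fewer cells that make a transcript and less of it per cell cannot be told apart.

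Of 12 measured genes for other surface and helper molecules of follicular helper cells, all above the filter, 3 were at least 2-fold lower in nTh1, 0 higher and 9 between, with a list median of -0.67 against -0.01 over all genes. P2rx7, an ATP-gated channel that limits follicular helper cells, was at -1.92, Izumo1r, the folate receptor 4 of regulatory and follicular helper cells, at -1.19, and Pdcd1, which encodes the inhibitory receptor PD-1, at -1.16. P2rx7 gave 9.89 in TT naive and 7.98 in nTh1. Transcription factors that favour the follicular fate, such as Maf and Batf, had 0 of 9 members past 2-fold in either direction, and a median of -0.12 over the 10 measured. Among the 12 antagonists, 1 was at least 2-fold higher, Il2rb, the IL-2 receptor beta chain, at 1.04, and none was lower. Migration receptors and cofactors of BCL6 had 0 of 6 and 0 of 4 past 2-fold. Of 11 genes for receptors, ligands and signal parts, only Icosl passed, at 1.47, and Il21r, the IL-21 receptor gene, was at 11.71 and 11.75 in TT naive and nTh1.

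Markers of other cells moved with this comparison. Regulatory T cell markers had 2 of 6 at least 2-fold lower in nTh1, Foxp3 at -2.57 (9.87 in TT naive, 7.29 in nTh1) and Gpr83 at -2.11, and the log2 of their summed level was 11.93 in TT naive and 11.01 in nTh1. Izumo1r, which regulatory T cells also carry, was at -1.19. It was counted only among the surface and helper genes above and is not 1 of these 6. B cell markers were higher in nTh1, with 2 of 6 past 2-fold and log2 summed levels of 9.52 and 10.35. Myeloid markers had 7 of 11 at 2-fold higher or more, with a median difference of 1.29 over the 12 measured. Several of the B cell and myeloid markers counted, such as Cd79a and Lyz2, passed the filter only through nTh1, where they were high. Immature thymocyte markers had 3 of 6, with log2 summed levels of 10.85 and 12.26. The part of these cells in the Il21, Cd200 and Icosl values was not tested.

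Th1 culture was examined by setting cTh1 against the naive-labelled array. Il21 was 2.64-fold lower in cTh1 (-1.40), and Bcl6 stood just under 2-fold higher, at 1.94-fold (0.96). Cxcr5 was at 0.42, Icos at -0.49 and Cd200 at -0.63. Of the members 1 was at least 2-fold lower, against 3.35% of 12835 genes, and 0 higher, against 5.13%, and with the arrays brought to 1 distribution or a loess trend removed Bcl6 reached 1.00 and 1.02. Against TT naive cells, which avoids the array in doubt, Il21 was 3.62-fold lower (-1.86), Bcl6 again at 0.96, Cxcr5 at 0.75, Icos at 0.01 and Cd200 at -0.35. There 1 member was lower, against 3.02% of 12728 genes, and 0 higher, against 7.24%. That comparison also sets spleen against thymus, wild type against CIITAtg and culture against none, and these cannot be told apart. Eif2s3y was at 4.97 in cTh1, against 8.55 in TT naive and 8.61 on the naive-labelled array.

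Genes around the members went both ways in cTh1. Against the naive-labelled array, antagonists of the follicular fate had 3 of 12 members 2-fold higher or more and 0 lower, with Il2ra, the IL-2 receptor alpha chain, at 3.48, Prdm1 at 1.91 and Tbx21, which encodes T-bet, at 1.45. The list median was 0.49, against -0.01 over all genes. Factors that favour the fate had 2 of 9 lower, Tox at -2.33 and Tox2 at -1.47, and 0 higher. Of the surface and helper genes 4 of 12 were lower, namely Il4 at -2.95, Pdcd1 at -2.66, Sostdc1 at -1.54 and Izumo1r at -1.05. Il4 and Sostdc1 were at 6.04 and 6.56 in cTh1, under the filter of 6.61, and passed it only through the naive-labelled array. They were not shown to be above background in cTh1, so their folds carry the limit given for Il21. Among these 12 genes 1 was higher, the costimulatory receptor gene Tnfrsf4 (OX40) at 1.93. The cytokine signal inhibitors Socs3 and Socs1 were higher by 2.15 and 1.38, and Il6st, the shared receptor chain of IL-6, by 1.22, which makes 3 of 10 in that list and 0 lower. TT naive, as a baseline, differs from cTh1 in tissue, genotype and culture at once. Against it, 4 of 12 antagonists were higher, Tbx21 at 4.14 and Prdm1 at 2.05 among them. Factors that favour the fate had 1 of 9 higher, Maf at 1.15, and 1 lower, Tox at -2.16. Pdcd1 was at -1.41 and Tox2 at -0.40, under 2-fold.

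B cell markers were higher in the same comparison as Bcl6 and Cxcr5. In cTh1 over the naive-labelled array, 6 of the 8 that passed the filter reached 2-fold, with a median of 2.40 over the 9 measured. Of the 6, Cd79a, Ms4a1, Ebf1 and Fcer2a were under the filter on the naive-labelled array and passed it only through cTh1, where they were high. The log2 of the summed level was 12.25 in cTh1 against 9.60, 9.52 and 10.35 on the naive-labelled array, TT naive and nTh1. Cd79a, a chain of the B cell receptor, was at 10.29 in cTh1 and between 6.50 and 7.64 on the other arrays. B cells express Bcl6, Cxcr5, Cd200 and Pou2af1. Pou2af1, listed here among the follicular factors, was at 8.89 in cTh1 and between 7.72 and 8.18 elsewhere. Cd200 went the other way in cTh1, at -0.63 against the naive-labelled array and -0.35 against TT naive, the latter within the SD between probe sets. Innate-like T cell markers had 3 of 5 at least 2-fold lower and 1 higher in cTh1 over the naive-labelled array. Genes of a recent receptor signal had 5 of 9 lower and 0 higher there, and 4 of 9 lower and 0 higher against TT naive. The part of B cells, innate-like T cells and recent signals in the member values was not tested.

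**Figure D2:**
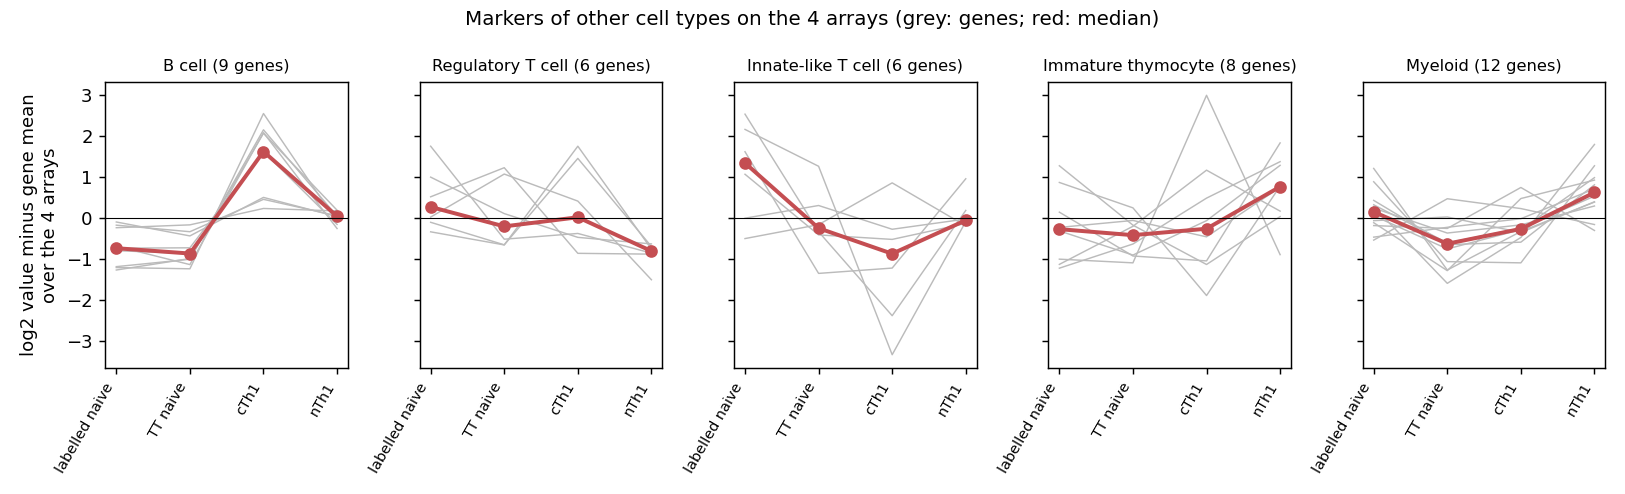
Marker genes of 5 other cell types on the 4 arrays, as log2 value minus the mean of the gene over the arrays, with 1 grey line per gene and the median in red; lines join arrays for reading only. B cell markers are raised in cTh1, where Cd79a reached 10.29, and regulatory T cell markers have their lowest median in nTh1, where Foxp3 was at 7.29.

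Natural and classical Th1 cells were then set side by side, as the series is framed. All 5 members were lower in nTh1 than in cTh1, by less than 2-fold for 4 of them. Cd200 was 2.40-fold lower (-1.26), Cxcr5 was at -0.75, Il21 at -0.70, Bcl6 at -0.61 and Icos at -0.45, the last within the SD between probe sets of 0.481. Of the members 1 was at least 2-fold lower, against 8.30% of 12841 genes, and 0 higher, against 3.46%, and with a single member past 2-fold nothing is read from this count about the set. The member median was -0.70 and that of all genes -0.03. Because the arrays differ in tissue, genotype and culture at once, these cannot be told apart.

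In the same comparison, 3 of 12 antagonists were at least 2-fold lower in nTh1, Tbx21 at -3.33, Il2ra at -2.43 and Prdm1 at -1.99. Among 9 factors that favour the fate, Tox was higher by 1.87, and Pou2af1 and Maf were at -1.18 and -1.08. Surface and helper genes had 3 of 11 lower, Tnfrsf4 at -2.71, P2rx7 at -2.13 and Sh2d1a, which encodes the adaptor SAP, at -1.05. S1pr2, a receptor that holds cells in the germinal centre, was at -1.14, 1 of 6 migration receptors. Socs3 and Socs1, at -1.88 and -1.15, were 2 of 11 in the list of receptors and signal parts, and none of the 4 BCL6 cofactors above the filter passed 2-fold in any of the 6 comparisons. B cell markers had 6 of 8 lower in nTh1 and regulatory T cell markers 3 of 6. Among the B cell markers, Ms4a1 and Ebf1 passed the filter only through cTh1. Immature thymocyte markers had 4 of 7 higher and 1 lower, Cd8a at -3.88, and myeloid markers 4 of 12 higher and 1 lower. Innate-like T cell markers had 3 of 5 higher and 1 lower. Their part in the member values was not tested.

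**Figure D3:**
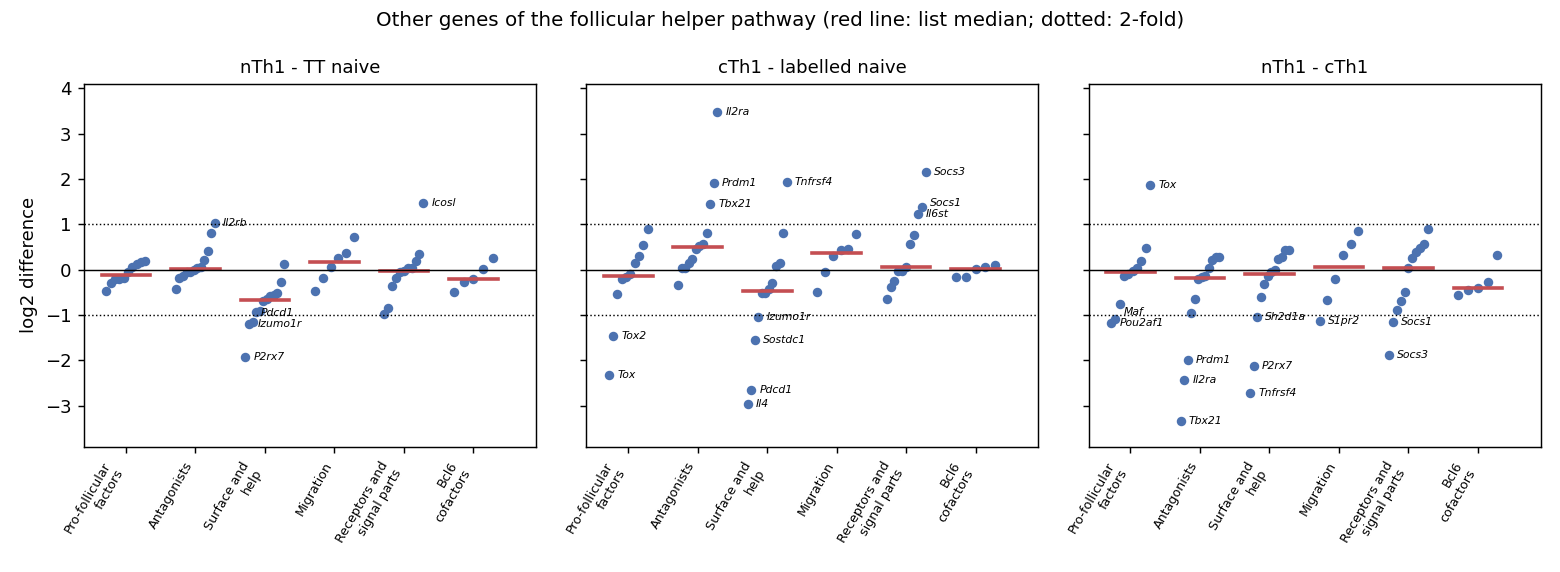
Log2 differences (vertical axis) of the measured members of 6 lists of follicular helper pathway genes in 3 comparisons, 1 point per gene, with the list median in red and names for genes at 2-fold or more. In nTh1 over TT naive the surface and helper list lies lowest, with a median of -0.67 and P2rx7 at -1.92, and in cTh1 over the naive-labelled array Il2ra is highest at 3.48.

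In the comparison of nTh1 with the naive-labelled array, Il21 was at -2.09, 4.27-fold between the values as deposited, Cd200 3.71-fold lower (-1.89) and Icos 1.92-fold (-0.94), with Bcl6 at 0.35 and Cxcr5 at -0.34. The Il21 value again rests on an nTh1 level not shown to be above background, and passed the filter only through the naive-labelled array. Of the members 2 were at least 2-fold lower, against 4.43% of 12754 genes, and 0 higher, against 1.93%. This comparison shares nTh1 with the contrast against TT naive, where Il21 and Cd200 were also the 2 members past 2-fold, so the pair of results is not independent. Between the 2 arrays labelled as naive cells no member differed by more than 0.50. In TT naive over the naive-labelled array 0 of 5 passed 2-fold, against 0.795% of 12582 genes higher and 2.59% lower, with Il21 at 0.46, Icos at -0.50, Cxcr5 at -0.33, Cd200 at -0.28 and Bcl6 at 0.00. Maf, an activator of Il21 and Il4, was nevertheless at 8.70 on the naive-labelled array and 7.39 in TT naive, and Il4 and Pdcd1 differed the same way, at 8.99 against 7.39 and 10.85 against 9.59. Of 5 innate-like T cell markers above the filter, 2 were at least 2-fold lower in TT naive and 0 higher, Zbtb16 at 9.36 against 12.23 and Xcl1 at 7.05 against 10.02, while Slamf1 was at 9.73 against 9.39.

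**Figure D4:**
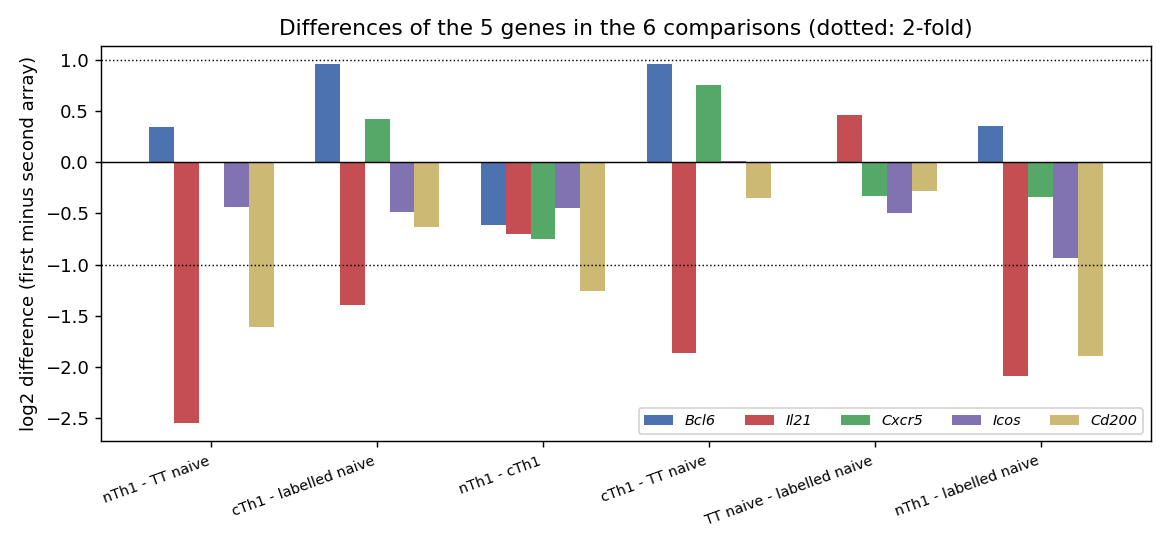
Log2 differences (vertical axis, first minus second array) of the 5 genes in all 6 comparisons, 1 bar per gene, with dotted lines at 2-fold and no error bars because each population had 1 array. Il21 passes -1 in 4 comparisons and Cd200 in 3, and no bar reaches 1, the highest being Bcl6 at 0.96.

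Only Il21 and Cd200 spanned at least 1 on the log2 scale, and for them the genes with the nearest pattern were sought among 11974 genes by the root mean square distance of values centred on the mean of each gene over the 4 arrays. Nearest to Il21 was St8sia6, a sialyltransferase gene, with 11.03, 11.39, 9.96 and 8.85 on the naive-labelled array, TT naive, cTh1 and nTh1 and a distance of 0.17. It was followed by Igfbp4, which encodes a binding protein of insulin-like growth factors, at 0.24 and Ptgfrn at 0.27. Nearest to Cd200 were Klf12, a Krüppel-like factor gene, at 0.16 with 7.50, 7.09, 6.70 and 5.85, Fam221a at 0.16 and Mfge8, a bridging protein in the uptake of dying cells, at 0.19. With 4 arrays many genes can have a like pattern by arithmetic alone, and the distance says nothing of shared control.

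**Figure D5:**
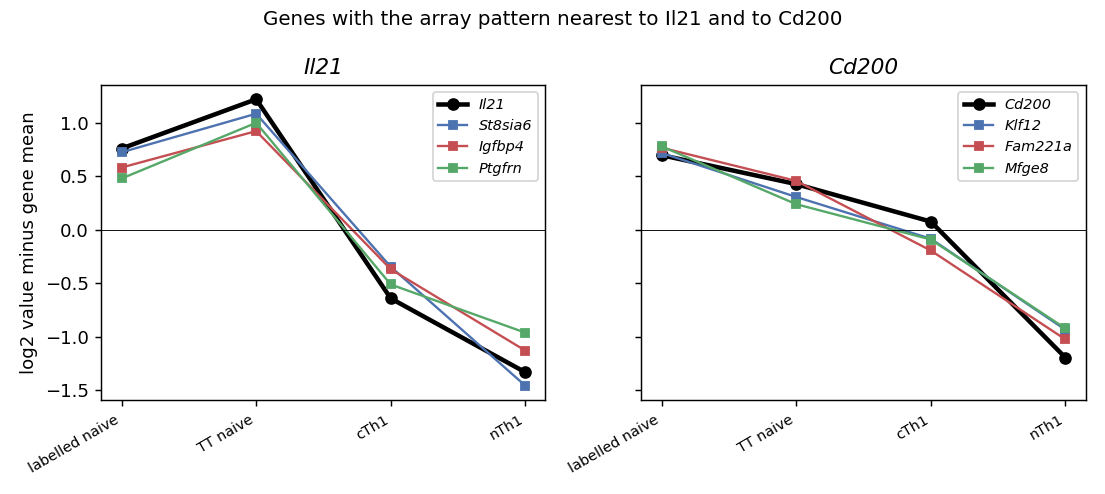
Log2 value minus gene mean over the 4 arrays for Il21 (left) and Cd200 (right) in black and for the 3 genes nearest to each in colour; lines join arrays for reading only. The Il21 group drops between TT naive and cTh1 and again to nTh1, where Il21 was at 6.44, while the Cd200 group is lowest in nTh1, where Cd200 was at 7.12.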

How the data were processed

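Total RNA of 4 sorted or cultured mouse CD4 T cell populations was hybridised to Affymetrix arrays, 1 array per population. The deposited log2 values are the authors' RMA summaries. The submitters' processing notes name Affymetrix Expression Console 1.3.1. This method subtracts background, brings arrays to a common distribution and summarises probe sets, which can compress large differences. The sources used here do not state the summary level or the annotation used. Of 41345 probe sets, 23521 had 1 gene symbol in the platform annotation, 1814 several and 16010 none; per gene the probe set with the highest mean was used.

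Genes were compared where either array reached the median of all values, 6.61, and counted from 2-fold up. The single array per group allowed no test. Each sample was grouped by its title. The number of arrays limits the precision. The members and the 14 gene lists were chosen with earlier results of these data known. Of 65 pathway genes 56 were used, and the others were not analysed here. List members past 2-fold, a few fixed genes and the 3 genes nearest to a member with a range of at least 1 were named; array check genes, Cd200r1, Cxcl13, Gpr83 and Batf were named after their values were seen. CD4 T cell markers had 0 of 8 past 2-fold in any comparison. Recent receptor signal genes had 1 of 9 higher and 2 lower in nTh1 over TT naive, and 4 higher and 1 lower in nTh1 over cTh1. Their counts in cTh1 over the naive arrays are given with the B cell markers.

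Promoter windows came from RefSeq on GRCm38.p6, where Icos and Cxcr5 were not used. Settings varied were the level filter (none, or the 75th percentile, 8.39), median centring, quantile scaling, loess with a span of 0.3, the mean of probe sets and a 3-fold threshold. Counting was tested on simulated data. Python 3.11.15, numpy 2.4.6, pandas 2.3.3, statsmodels 0.14.6 and matplotlib 3.10.9 were used.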

Additional observations from a re-analysis of the deposited data

Results flagged for a closer look

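The search covered the members, a few fixed genes and the pathway genes past 2-fold. The genes below moved in opposite directions in the thymic comparison (nTh1 over TT naive) and the spleen-derived one (cTh1 over the naive-labelled array). Each moved by more than the SD between probe sets in both. The difference was not tested, since each group had 1 array, and the spleen-derived comparison rests on the array whose label is in doubt. No member of the 5 moved in opposite directions by this rule. Tnfrsf4, which encodes OX40, was at -0.94 and 1.93, a difference of -2.87. Il6st was at -0.35 and 1.22, a difference of -1.57. Pou2af1, which B cells also express, was at -0.47 and 0.89, a difference of -1.36. Zbtb16, a marker of innate-like T cells, was at 0.52 and -4.91, a difference of 5.43. The marker lists were not searched, apart from the fixed genes. Of their genes, Xcl1 was at 2.30 and -2.83, C1qb at 2.34 and -1.98 and Aqp11 at 2.76 and -1.19. Others, such as Cd79a at 1.15 and 3.76, moved the same way in both.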

How the results depend on the processing

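No paired analysis was possible because each group had 1 array. Of 84 counts of members under the alternatives, 79 were equal to the count reported or within 1.5 times it. Many of these were counts of 0 that stayed 0. The mean of probe sets could change no count, since each member had 1 probe set. The 79 is therefore not a measure of stability. With quantile scaling and with the loess trend removed, 1 member instead of 0 was at least 2-fold higher in cTh1 over the naive-labelled array, Bcl6 at 1.00 and 1.02. With a 3-fold threshold, 0 instead of 1 member was lower in that comparison (Il21) and 0 instead of 1 in nTh1 over cTh1 (Cd200). A filter at the 75th percentile also left 0 there, because Cd200 in cTh1 was just under the 8.39 it requires and 3 members remained. Across 120 recomputed differences of single members, none moved by more than the SD between probe sets and no called difference changed sign. The largest shift was 0.12 with centring, 0.20 with quantile scaling and 0.13 with loess; each member had 1 probe set, so the mean of probe sets moved none. The value of Il21 in nTh1 lay under the level filter, so its difference there is the least certain.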
